A study of Mus musculus with 9 samples.

Results

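The clustered histone genes encode the 4 core histones and the linker histone H1 that package newly replicated DNA, and they lie in tandem groups on mouse chromosomes 13 and 3. The genes described here are the rows of the deposited table whose symbol is H2ac, H2bc, H3c or H4c followed by a number, or H1f1 to H1f6. There were 65 such genes among 56748, made up of 6 H1, 18 H2A, 17 H2B, 12 H3 and 12 H4 genes. By gene identifier, GENCODE M21 placed 55 of them on chromosome 13 and 10 on chromosome 3. The symbols, and no measured value, chose the genes.

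Clustered histone mRNAs are made mainly in S phase, when replication needs new histones. The transcription coactivator NPAT switches the genes on, and most of their mRNAs end in a short stem-loop in place of a poly(A) tail. The stem-loop binding protein SLBP holds that end through cutting by the U7 small nuclear ribonucleoprotein, export, translation and decay at the end of S phase. Some clustered histone genes also give a longer, polyadenylated mRNA, described mostly in cells that leave the cycle. Replacement histones such as H3.3 and H2A.Z come from ordinary polyadenylated genes outside the clusters and are made through the whole cell cycle.

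The RNA came from wild-type primary airway basal stem cells, the progenitors at the base of the tracheal lining, isolated from mouse tracheas and cultured at the boundary of air and medium (ALI culture). There the cells sit on a membrane with medium beneath and air over them, and form layers. RNA was taken on day 1, day 3 and day 5, with 3 libraries a day. The submitters assign these days to proliferation, stratification and luminal cell specification, and nothing other than the day is labelled as different between the groups. The labels give no mouse strain, age or sex, and they do not say whether replicates were separate animals or separate cultures, so p-values measure the spread between these libraries, which may be technical.

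The stem-loops are shown first because they are the end by which the family is processed. A script looked through the annotated GENCODE M21 transcripts (GRCm38, sense strand) for 16 bases that start with GG, pair perfectly over 6 bases and close a 4-base loop that starts with T. Of the 65 genes, 43 had one: 4 of 6 H1, 10 of 18 H2A, 9 of 17 H2B, 9 of 12 H3 and 11 of 12 H4 genes, against 1.24% of all 55450 annotated genes. The following 6 sequences are from genes described later, written 5′ to 3′ as DNA with the stem-loop in capitals and 5 bases on each side.
H1f2: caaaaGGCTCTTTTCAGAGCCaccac
H2bc11: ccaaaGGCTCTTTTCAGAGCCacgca
H3c1: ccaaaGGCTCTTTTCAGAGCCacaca
H3c3: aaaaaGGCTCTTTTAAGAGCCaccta
H4c8: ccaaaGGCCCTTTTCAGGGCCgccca
H4c9: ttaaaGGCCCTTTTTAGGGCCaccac

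The H1f2, H2bc11 and H3c1 form, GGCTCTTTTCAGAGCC, was carried by 24 genes of the H1, H2A, H2B and H3 types. The H3c3 form, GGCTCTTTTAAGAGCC, was carried by 6 genes. H4 genes had their own stems: 6 shared the H4c8 form, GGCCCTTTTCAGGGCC, and H4c9 and H4c14 shared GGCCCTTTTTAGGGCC. A gene without a match has no such letters in its annotated transcript, which says nothing about how its RNA ends in these cells.

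The annotated transcript went on past the stem-loop for 840 bases in H1f2 and 330 bases in H4c9, but for only 23 bases in H2bc11, 37 in H3c1 and 74 in H3c3. The letters AATAAA or ATTAAA, the usual poly(A) signal, stood on the sense strand within the last 50 bases of a transcript of 14 members, against 43.9% of all annotated genes. With 5 spliced genes, 4 of them also counted among the 14, that made 15 members annotated with a poly(A) signal or splicing. These 15 are H1f2, H1f6, H2ac8, H2bc4, H2bc6, H2bc21, H2bc22, H2bc23, H2bc24, H3c14, H4c1, H4c8, H4c9, H4c11 and H4c14.

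Of the 65 genes, 42 were detected, meaning 10 or more normalized counts in 3 or more libraries. A normalized count is a read count divided by the library's size factor, and 1 read was worth 0.606 to 1.34 of them. By type, 4 of 6 H1, 5 of 18 H2A, 14 of 17 H2B, 10 of 12 H3 and 9 of 12 H4 genes were detected. Among the 23 others, 6 had no read in any library: H2ac1, H2ac18, H2ac19, H2bc18, H3c13 and H3c14. The remaining 17 reached at most 27.5 normalized counts in a library and at most 7.17 as a mean over all libraries. H1f1 and H2bc14 stood just outside the limit, with a third-highest value of 8.74 and 9.37, and H1f5 and H2bc3 just inside it, both at 11.2. H2ac14 is annotated as an unprocessed pseudogene.

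Near-identical copies limit what can be said of single genes. Over 100-base stretches of transcript, read on either strand, 29 of the 65 genes shared more than 50% of their sequence with another annotated entry. Such an entry can be a copy elsewhere or lie over the same bases. For 5 of the 6 genes without a read, H2ac18, H2ac19, H2bc18, H3c13 and H3c14, every stretch was shared. Each of these 5 is covered in full by another entry at its own place. That entry is on the same strand for H3c14 and on the opposite strand for the others. The way the counting treated reads that fit several genes is not given in the sources used here, so a gene without transcripts and a gene whose reads were not assigned cannot be told apart here. Sharing was low for H1f2 at 5.07%, H4c9 at 15.1%, H2bc4 at 25.4% and H3c3 at 28.4%, and H2bc21 shared nothing. It was 92.7% and 92.2% for H2ac23 and H2ac24, which share with each other, 94.8% and 86.4% for H2bc23 and H2bc24, and 92.0% for H3c10, so those values are uncertain as single genes. H1f4 and H2bc6 overlap on the same strand over 496 exonic bases. Most H2A genes, the 5 detected ones included, overlap an entry on the opposite strand, by 138 bases in each of those 5, and whether counting used strand is not given either.

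Summed over the 65 genes, the level was similar over the 3 days, while its make-up by histone type changed. Their summed level was 2584 ± 246, 2669.5 ± 327 and 2646 ± 462 normalized counts on days 1, 3 and 5 (SD, n = 3), and the log2 ratio of the day 5 mean to the day 1 mean was 0.03. The 65 genes took 94.7 to 148 reads per M reads. Much of the sum came from H1f2 and H2bc4, so the similar total does not stand for the other members. H1f2 averaged 846, 494 and 1182 normalized counts on days 1, 3 and 5, and H2bc4 345, 639 and 653. H2A, H3 and H4 were lower on day 5 than on day 1, and H2B and H1 were higher, by 0.38 and 0.45 as the log2 ratio of the day means. The sums cover every member of a type, detected or not, and no test is given for them. In these bulk samples, fewer cells that make histone mRNA and less histone mRNA per cell cannot be told apart.

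Summed H1 was 819.8, 1130.0 and 793 normalized counts in the day 1 libraries, 576, 552 and 568 on day 3, and 1072, 1249 and 1420.2 on day 5. The day 3 libraries were the lowest of all 9, and day 5 overlapped day 1 in 1 library. Summed H2A was 132, 83.0 and 110.4 on day 1, 134, 155 and 138 on day 3, and 14.9, 28.4 and 38.2 on day 5. Every day 5 library was below every library of the other days. Summed H2B was 911, 922 and 820.4 on day 1, 1278, 1295 and 1091 on day 3, and 936, 1153 and 1353 on day 5. Its libraries of days 3 and 5 were all above those of day 1, with day 5 the most spread.

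Summed H3 was 207, 232 and 213 normalized counts on day 1, 487, 389.6 and 251 on day 3, and 57.5, 73.6 and 106 on day 5. The 3 days did not overlap: day 3 was highest and day 5 lowest. Summed H4 was 516, 461 and 401 on day 1, 426, 422 and 247 on day 3, and 113, 123 and 201 on day 5. Days 1 and 3 overlapped for H4, and day 5 lay below both. The log2 ratio of the day 5 mean to the day 3 mean was -2.39 for H2A, -2.25 for H3 and -1.33 for H4, against -0.09 for H2B and 1.14 for H1. The log2 ratio of the day 3 mean to the day 1 mean was 0.79 for H3, 0.47 for H2B and 0.39 for H2A, against -0.33 for H4 and -0.69 for H1.

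**Figure D1:**
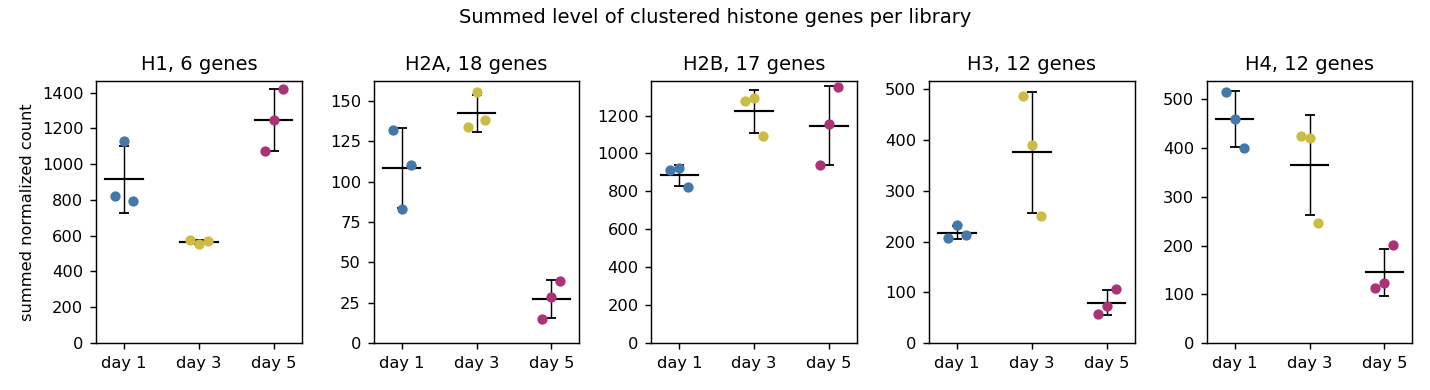
Summed normalized count of all genes of each histone type (vertical axis, linear, from 0) against day of culture (horizontal axis); points are libraries, the long bar is the mean of 3 libraries and the error bar its SD. H2A, H3 and H4 are lowest on day 5, at means of 27.1, 79.0 and 145, and H1 is lowest on day 3, at a mean of 565.

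The test per gene was limma on log2(normalized count + 1) over 17338 genes, with Benjamini-Hochberg adjustment over all of them and a call at an adjusted p under 0.05. Calls were many in both comparisons of day 5 and few in day 3 against day 1. In day 5 against day 3, 25 of the 42 members tested were lower, where 32.4% of all genes tested were, and 2 were higher, where 34.8% of all genes were. The median log2 change was -1.32 over the members and 0.06 over all genes tested. In day 5 against day 1, 23 members were lower, against 37.7% of all genes, and 3 were higher, against 36.7%. The median log2 change was -1.11 over the members and -0.06 over all genes.

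In day 3 against day 1, 4 members were higher, where 36.1% of all genes were, and 2 were lower, where 37.0% were. The median log2 change was 0.32 over the members and 0.00 over all genes. The higher ones were H2bc4, H2bc11, H3c1 and H4c4, and the lower ones H1f2 and H4c9. This split was not stable. Without replicate 3 of day 3 there were 8 higher and 2 lower, where 6156 and 6276 of all 17338 genes were. With the trend of the change on transcript length and GC content removed there were 2 higher and 7 lower. Of the 17046 genes in that fit, 6269 were higher and 5937 lower.

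The second step, between days 3 and 5, was tested against the first, between days 1 and 3, and the 2 steps differed in 22 members. The second was lower in 20, against 33.9% of all genes, and higher in 2, H1f2 and H2bc21, against 36.8%. Over all 3 days, 24 of 42 members differed in the F test, against 91.4% of all genes. The members' levels were low, with a median of 20.1 normalized counts per gene against 348 over all genes tested. Many passed the detection limit through days 1 and 3 alone: 34 members had at least 10 normalized counts in all 3 libraries of day 1, 33 on day 3 and 16 on day 5. Without the limit, over the 59 members with a read, 27 were lower and 2 higher in day 5 against day 3. Of all 33601 genes with a read, 5916 were lower and 6949 higher there.

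**Figure D2:**
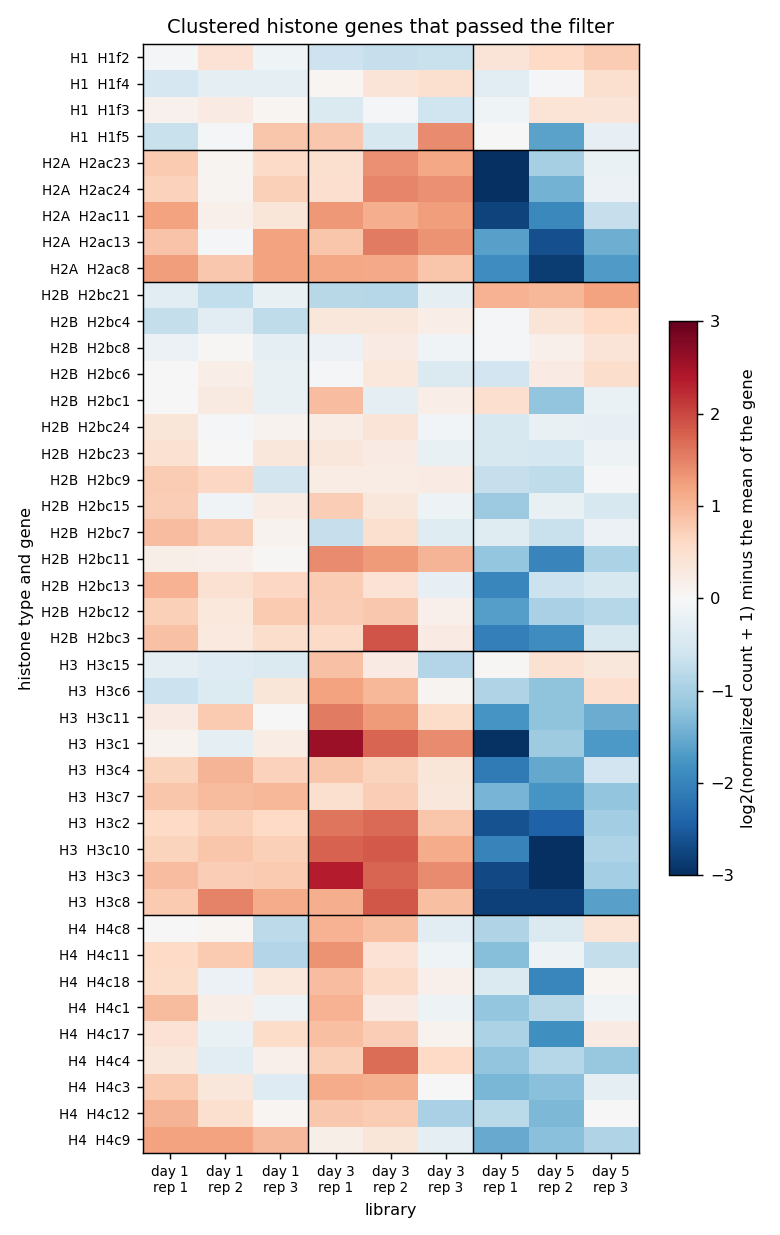
Log2(normalized count + 1) minus the mean of the gene over the 9 libraries, for the 42 detected members (rows, by histone type and then by change) in each library (columns, by day); red is above the mean of the gene, blue below it, and the colour scale ends at -3 and 3. Most H2A and H3 rows and part of the H2B and H4 rows are blue on day 5, while H1f2, H2bc4 and H2bc21 are not.

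Among the 6 clustered genes of linker histones, which bind the DNA that enters and leaves the nucleosome, most of the summed count came from H1f2, the gene of H1.2 (ENSMUSG00000036181). Its level was 759, 1059 and 720.4 normalized counts in the day 1 libraries, 508, 482 and 492 on day 3, and 1019.6, 1184 and 1341 on day 5. All day 3 libraries were below the others, and days 1 and 5 overlapped. H1f2 fell to 494 ± 13.3 on day 3, against 846 ± 186 on day 1 (log2 change -0.75 ± 0.15, SE; limma adjusted p = 0.0010). It rose to 1182 ± 161 on day 5, against 494 ± 13.3 on day 3 (log2 change 1.25 ± 0.15, adjusted p = 5.3e-05). Day 5 was also higher than day 1 (log2 change 0.49, adjusted p = 0.013), a call that was lost without replicate 3 of day 1 (adjusted p = 0.057) and whose value turned to -0.15 with the trend on length and GC content removed. H1f2 held 92.4 ± 1.44%, 87.4 ± 0.83% and 94.8 ± 0.32% of the summed H1 count on days 1, 3 and 5.

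The other detected H1 genes were low. H1f3, the gene of H1.3, averaged 32.4 ± 2.32, 22.7 ± 4.85 and 34.5 ± 6.75 normalized counts on days 1, 3 and 5, a pattern like that of H1f2 in its means, but no comparison passed the test. H1f4, the gene of H1.4, averaged 19.7 ± 1.77, 31.7 ± 4.88 and 26.7 ± 8.15, with its largest log2 change, 0.66 in day 3 against day 1, at an adjusted p of 0.060. H1f5, the gene of H1.5, averaged 6.91 ± 4.17, 11 ± 6.88 and 4.05 ± 2.45, and its libraries of different days overlapped. H1f1 and the testis histone gene H1f6 were not detected.

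H2A pairs with H2B on the outer face of the nucleosome. All 5 detected H2A genes fell in day 5 against day 3 and in day 5 against day 1, where 32.4% and 37.7% of all genes did. All 5 also had a second step lower than the first, against 33.9% of all genes. In day 3 against day 1, 0 of 5 passed in limma in either direction, with 0 at an unadjusted p under 0.05 and 0 with voom weights. H2ac11 (ENSMUSG00000069301) had the highest mean of the type, with 30.5, 14.1 and 16.4 normalized counts on day 1, 32.5, 28.1 and 31.6 on day 3, and 0.991, 2.58 and 7.38 on day 5. Every day 5 library lay below the others (day 5 against day 3, log2 change -3.02 ± 0.50, SE; adjusted p = 0.00042).

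H2ac8 had 16.3, 11.6 and 15.8 normalized counts on day 1, 15, 14.7 and 11.8 on day 3, and 0.991, 0 and 1.23 on day 5. That is 64, 35 and 2 reads over the 3 libraries of days 1, 3 and 5, and a day 5 to day 3 ratio of 0.0564 with an exact 95% interval of 0.00657 to 0.219, which covers counting error only. H2ac13 had 43, 36 and 2 reads, for a ratio of 0.0548 (0.00639 to 0.213). These H2A genes were thus nearly without reads on day 5, where the 3 libraries held 16.4 to 19.3 M reads each. H2ac23 and H2ac24, which cannot be separated over most of their length, averaged 3.75 ± 3.69 and 3.32 ± 3.75 on day 5, against 19.1 ± 5.97 and 20.54 ± 7.02 on day 3 and 12.7 ± 3.28 and 12.6 ± 3.04 on day 1. H2ac23 no longer passed in day 5 against day 1 without replicate 1 or replicate 3 of day 1 (adjusted p = 0.062 and 0.053). On day 5, no H2A gene reached 10 normalized counts in all 3 libraries. All 5 had passed the detection limit through days 1 and 3, so the count of 5 of 5 is in part set by that limit.

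H2B genes split into opposite courses. Of 14 detected, 2 rose and 7 fell in day 5 against day 1, where 36.7% of all genes tested rose and 37.7% fell. In day 5 against day 3, 1 rose, against 34.8% of all genes, and 5 fell, near the 32.4% of all genes. H2bc4 (ENSMUSG00000018102) had 315, 416 and 304 normalized counts on day 1, 659, 661 and 597 on day 3, and 496, 679 and 783 on day 5. Both later days lay wholly above day 1. The log2 change was 0.90 ± 0.17 in day 3 against day 1 (limma adjusted p = 0.00083) and 0.91 ± 0.17 in day 5 against day 1 (adjusted p = 0.00076), with 0.01 between day 5 and day 3 (adjusted p = 0.98).

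H2bc21 (ENSMUSG00000068854), on chromosome 3, encodes the H2B variant known as H2BE from mouse olfactory neurons. It had 65.1, 48.2 and 69.1 normalized counts on day 1, 45.0, 44.2 and 67.1 on day 3, and 169, 164 and 188 on day 5. Days 1 and 3 overlapped, and every day 5 library was above all of them. The log2 change was 1.74 ± 0.23 in day 5 against day 3 (adjusted p = 8.8e-05) and 1.52 ± 0.23 in day 5 against day 1 (adjusted p = 0.00013). H2bc4 and H2bc21 together held 45.9 ± 4.31%, 56.8 ± 3.498% and 72.0 ± 1.02% of the summed H2B count on days 1, 3 and 5.

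H2bc11 (ENSMUSG00000069300) took the other course, with 44.1, 43.2 and 40.0 normalized counts on day 1, 105, 95.1 and 78.9 on day 3, and 16.8, 9.04 and 19.7 on day 5. The 3 days did not overlap. It was higher on day 3 than on day 1 (log2 change 1.11 ± 0.30, adjusted p = 0.0060), a call lost with the trend on length and GC content removed (0.34, adjusted p = 0.33). On day 5 it was lower than on day 3 (log2 change -2.59 ± 0.30, adjusted p = 3.4e-05) and lower than on day 1 (-1.49 ± 0.30, adjusted p = 0.00092). H2bc12 fell in day 5 against day 3 only after a first step without a call (log2 change -0.04, adjusted p = 0.91), and averaged 16.2 ± 4.68 on day 5, against 55.3 ± 13 on day 3 and 56.4 ± 9.36 on day 1. H2bc3, H2bc13 and H2bc15 were also lower on day 5 than on both other days.

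Of the remaining H2B genes, H2bc8 was the most abundant per length. It averaged 76.3 ± 9.14, 84.0 ± 14.4 and 94.6 ± 14.2 normalized counts on days 1, 3 and 5, and no comparison passed the test. H2bc7 averaged 12.7 ± 2.23 on day 5, against 26.8 ± 7.76 on day 1 (log2 change -0.998, adjusted p = 0.033). That call was lost in 7 of the alternatives tried, 4 of which left out replicate 1 or 2 of day 1 or replicate 1 or 2 of day 5 (adjusted p = 0.058 to 0.11). H2bc1, whose protein is the testis form of H2B, averaged 10.4 ± 1.99, 13.3 ± 6.11 and 9.12 ± 5.51. The near-identical H2bc23 and H2bc24 averaged 53.4 ± 8.20 and 32.7 ± 3.42 on day 5, against 84.1 ± 13.6 and 45.5 ± 6.70 on day 1, and H2bc23 alone passed (log2 change -0.64, adjusted p = 0.028).

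H3 and H4 form the tetramer at the core of the nucleosome. Of 10 detected H3 genes, 9 fell in day 5 against day 3, against 32.4% of all genes. In day 5 against day 1, 8 fell, against 37.7% of all genes. Of the 10, 1 kept at least 10 normalized counts in all 3 libraries of day 5. The 9 that fell had passed the detection limit through days 1 and 3, so the counts are in part set by it. H3c3 (ENSMUSG00000069310) had 35.9, 31.6 and 32.7 normalized counts on day 1, 98.7, 64.3 and 51.3 on day 3, and 1.98, 0 and 8.61 on day 5. The 3 days did not overlap. On day 5 it was lower than on day 3 (log2 change -4.51 ± 0.66, adjusted p = 0.00018) and lower than on day 1 (-3.49 ± 0.66, adjusted p = 0.00065). The higher level on day 3 than on day 1 did not pass (log2 change 1.02 ± 0.66, adjusted p = 0.18), but did with a pseudocount of 8 (adjusted p = 0.017), in a fit to days 1 and 3 alone (0.016) and with voom weights (0.022).

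H3c1 (ENSMUSG00000069265) had 15.6, 11.6 and 17.0 normalized counts on day 1, 91.2, 50.9 and 40.5 on day 3, and 0.991, 6.45 and 3.69 on day 5. It had the highest log2 change of any detected member in day 3 against day 1, 1.91 ± 0.49 (adjusted p = 0.0048), and fell by 3.83 ± 0.49 on the log2 scale in day 5 against day 3 (adjusted p = 7.5e-05). H3c8 had 61, 41 and 1 reads over the 3 libraries of days 1, 3 and 5, for a day 5 to day 3 ratio of 0.0241 (exact 95% interval 0.000595 to 0.142). H3c10, which shares most of its sequence with other H3 genes, averaged 3.45 ± 3.72 on day 5, against 47.8 ± 12.4 on day 3 and 25.8 ± 1.52 on day 1.

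The H3 gene without a call in day 5 against day 3 was H3c15 (ENSMUSG00000081058), on chromosome 3, which shares 61.6% of its stretches with other entries. It had 27.8, 25.7 and 24.9 normalized counts on day 1, 62.5, 40.2 and 17.8 on day 3, and 34.7, 46.5 and 43.1 on day 5. The day 3 libraries spread more widely than the difference between days 1 and 5. The log2 change in day 5 against day 1 was 0.64 ± 0.39, with a 95% interval of -0.24 to 1.51 (adjusted p = 0.16). It passed without replicate 3 of day 3 (adjusted p = 0.047), where the value itself was the same and the shared estimate of the spread was smaller, and in the fit to the 2 days compared (adjusted p = 0.043).

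**Figure D3:**
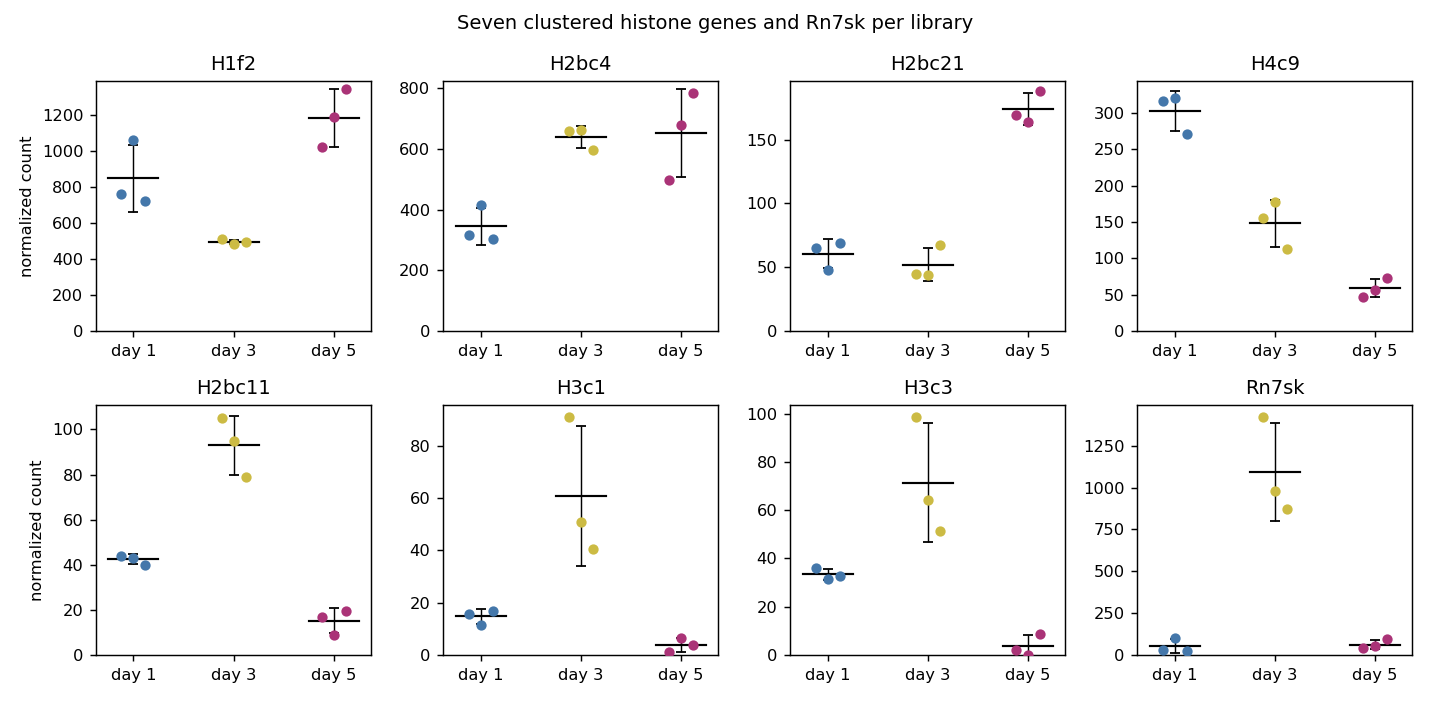
Normalized count of 7 clustered histone genes and of Rn7sk (vertical axes, linear, from 0, each with its own range) against day of culture; points are libraries, the long bar is the mean of 3 libraries and the error bar its SD. H2bc11, H3c1, H3c3 and Rn7sk are highest on day 3, H2bc21 and H1f2 are highest on day 5, and H4c9 is lower on each later day.

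H4c9 was the one H4 gene called lower already on day 3. Of 9 detected H4 genes, 6 fell in day 5 against day 3, where 32.4% of all genes did. In day 5 against day 1, 3 fell, near the 37.7% of all genes. Of the 6, H4c9 alone kept at least 10 normalized counts in all 3 libraries of day 5. The others of the 6 had passed the detection limit through days 1 and 3, so the counts are in part set by it. H4c9 (ENSMUSG00000060639) had 316, 319.7 and 271 normalized counts on day 1, 155, 177 and 112 on day 3, and 47.6, 56.8 and 72.6 on day 5. The 3 days did not overlap and each later day was lower. The log2 change was -1.05 ± 0.22 in day 3 against day 1 (adjusted p = 0.0012), -1.31 ± 0.22 in day 5 against day 3 (adjusted p = 0.00040) and -2.35 ± 0.22 in day 5 against day 1 (adjusted p = 3.0e-06). H4c9 held 66.1 ± 4.28%, 41.3 ± 4.65% and 41.5 ± 5.08% of the summed H4 count on days 1, 3 and 5.

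No other H4 gene was called lower in day 3 against day 1. H4c4, which shares no 100-base stretch with another gene, averaged 15.7 ± 3.73, 32.4 ± 14.9 and 6.61 ± 0.984 normalized counts on days 1, 3 and 5. It was higher on day 3 than on day 1 (log2 change 0.94, adjusted p = 0.036) and lower on day 5 than on day 3 (-2.05, adjusted p = 0.00060). H4c8 averaged 21.6 ± 6.63, 39.7 ± 17.5 and 21.4 ± 10.6, and no comparison passed. H4c18 averaged 11.7 ± 7.36 on day 5, against 27.2 ± 7.63 on day 3 (log2 change -1.33, adjusted p = 0.033), a call that was lost in 6 of the alternatives tried. Among these were the fits without replicate 1 of day 3 (-1.13), without replicate 2 of day 3 (-1.32) and without replicate 2 of day 5 (-0.74).

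Per kilobase of annotated exon, the mean level over the 9 libraries was 539 normalized counts for H1f2, 472 for H2bc4 and 234 for H4c9. Next came H2bc8 at 137 and H2bc11 at 108, and H3c10 and H3c11 led the H3 genes at 62.5 and 62.4. H2bc21 stood at 36.5 and H2ac11, the highest H2A gene, at 37.6. The first 3 of these genes were thus well above every other member on this scale, and 2 of them, H1f2 and H2bc4, were not called lower on day 5.

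The members were also grouped by their annotated transcript end. The 15 members annotated with a poly(A) signal or splicing had a summed level of 1798 ± 248, 1591 ± 118 and 2241 ± 368 normalized counts on days 1, 3 and 5 (SD, n = 3). Without H1f2 and H2bc4, left out after their values were seen, the other 13 had 606 ± 48.8, 457 ± 78.9 and 406 ± 65.6. The 50 others had 786 ± 57.5, 1079 ± 209 and 405 ± 97.5. In single libraries the sum of the 50 was 852, 757 and 749 on day 1, 1229, 1168 and 839.8 on day 3, and 327, 374 and 514 on day 5, so that day 5 lay below the others and days 1 and 3 met. No test is given for these sums, and the difference between the 2 groups of genes was not tested.

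Of the 11 detected genes with a poly(A) signal or splicing, 3 were higher and 3 lower in day 5 against day 1 (limma, adjusted over all genes). The higher ones, H1f2, H2bc4 and H2bc21, are the only members called higher in that comparison, and the lower ones were H2ac8, H2bc23 and H4c9. Of the 31 detected genes with neither feature, 20 were lower and 0 higher, with 0 higher at an unadjusted p under 0.05 and 0 with voom weights. Beside both groups, 36.7% of all genes tested were higher and 37.7% lower in day 5 against day 1. Many members passed the detection limit through days 1 and 3 alone, which in part sets the counts of lower genes. In day 3 against day 1 the 31 had 3 higher, H2bc11, H3c1 and H4c4, and the 11 had 1 higher and 2 lower. Of all genes, 36.1% were higher and 37.0% lower there. The annotation says where a transcript model ends and not whether the RNA measured here had a tail.

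**Figure D4:**
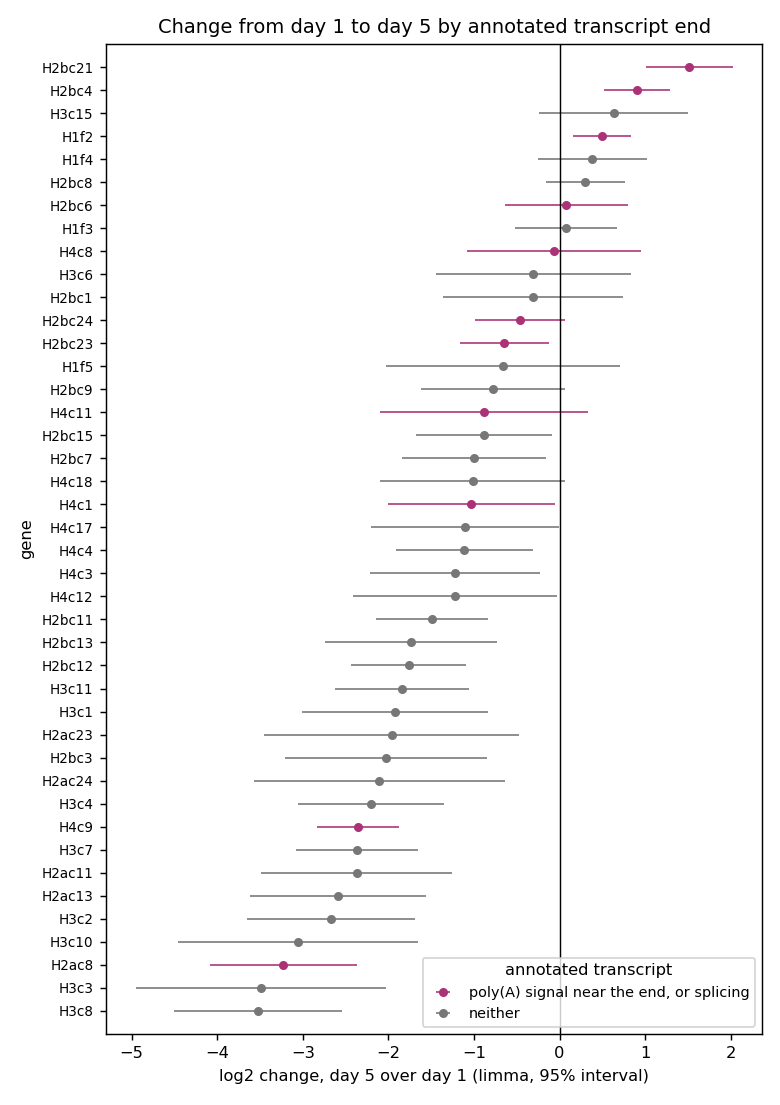
Log2 change in day 5 over day 1 (horizontal axis; point, limma estimate on log2(normalized count + 1); bar, 95% interval) for the 42 detected members (vertical axis, sorted), with genes annotated with a poly(A) signal or splicing in magenta and the others in grey. H2bc21, H2bc4 and H1f2 lie right of 0 with intervals that do not reach it, and the grey genes lie mostly to the left.

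Promoters are shown for 3 genes that took different courses. RefSeq (GRCm38.p6) gave a 300-base window, 250 before and 50 after the start, for 58 of the 65 genes, and none was matched for H2bc4, H2bc21 or H3c1. Capitals mark the CCAAT box, the TATAAA form of the TATA box and the octamer core, ATTTGCA, on either strand. A CCAAT box on the other strand reads ATTGG. In the windows shown, CCAAT in either direction was the one motif of these found. The first is H1f2 (chr13:23738557-23738856, plus strand), lowest on day 3. The second is H2bc11 (chr13:22042948-22043247, plus strand), highest on day 3. The third is H3c3 (chr13:23745472-23745771, minus strand), with the lowest log2 change in day 5 against day 3.
H1f2: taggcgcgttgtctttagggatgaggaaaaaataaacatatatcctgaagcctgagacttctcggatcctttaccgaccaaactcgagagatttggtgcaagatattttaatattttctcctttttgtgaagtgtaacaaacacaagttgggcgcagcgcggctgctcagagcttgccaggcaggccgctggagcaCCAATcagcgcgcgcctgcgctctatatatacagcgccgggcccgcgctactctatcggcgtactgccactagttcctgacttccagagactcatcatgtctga
H2bc11: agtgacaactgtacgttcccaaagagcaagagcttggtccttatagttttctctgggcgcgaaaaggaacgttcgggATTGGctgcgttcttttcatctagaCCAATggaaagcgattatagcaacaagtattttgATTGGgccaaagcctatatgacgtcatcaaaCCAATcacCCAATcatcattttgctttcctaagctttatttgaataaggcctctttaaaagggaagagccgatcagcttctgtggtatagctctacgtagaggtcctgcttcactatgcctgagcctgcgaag
H3c3: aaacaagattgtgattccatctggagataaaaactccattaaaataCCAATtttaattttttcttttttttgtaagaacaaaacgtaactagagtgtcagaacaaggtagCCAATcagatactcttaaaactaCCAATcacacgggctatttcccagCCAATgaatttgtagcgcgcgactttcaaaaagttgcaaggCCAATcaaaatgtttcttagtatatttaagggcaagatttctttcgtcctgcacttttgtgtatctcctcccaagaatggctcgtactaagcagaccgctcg

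The H2bc11 window overlaps that of H2ac11 (chr13:22042900-22043199, minus strand), which starts beside it in the opposite direction, and both genes were low on day 5. CCAAT stood in 50 of the 58 member promoters, against 37.9% of 27025 promoters. It was in 6 of 6 H1, 17 of 17 H2A, 14 of 14 H2B and 10 of 10 H3 windows but in 3 of 11 H4 windows. TATAAA stood in 34 of 58, against 14.2% of all promoters. The octamer core stood in 12 of 58, against 3.98% of all, and those were 6 of 17 H2A and 6 of 14 H2B windows. A match is a description of the letters and not of a site in use, and CCAAT stood in promoters of genes that rose, fell or had no call.

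The genes that switch on and process histone mRNA were mostly lower on day 5. Of 27 tested, 4 were higher and 19 lower in day 5 against day 1, where 36.7% and 37.7% of all genes were. The median log2 change of the 27 was -0.58 there. In day 3 against day 1, 11 were higher and 13 lower, against 36.1% and 37.0% of all genes. In day 5 against day 3, 6 were higher and 15 lower, against 34.8% and 32.4%. Slbp, the stem-loop binding protein gene, averaged 1681 ± 161, 1189 ± 15.6 and 860.4 ± 47.3 normalized counts on days 1, 3 and 5, and was lower at each step (day 5 against day 1, log2 change -0.96 ± 0.09, adjusted p = 4.2e-06). Npat, the coactivator gene, averaged 960.1 ± 109, 279.5 ± 34.2 and 320.2 ± 70.1. Casp8ap2 (FLASH), its partner at the nuclear bodies around the histone genes, averaged 932 ± 93.6, 161 ± 35.6 and 193 ± 51.0. Both fell by day 3 (log2 change -1.78 and -2.54, adjusted p = 5.9e-06 and 2.9e-06), when the summed H2A, H2B and H3 levels were at their highest.

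Parts of the U7 particle took separate courses. Lsm10 averaged 199 ± 26.0, 639 ± 124 and 355 ± 88.6 normalized counts on days 1, 3 and 5, and was higher on day 3 than on day 1 (log2 change 1.66 ± 0.21, adjusted p = 4.2e-05). Lsm11 averaged 335 ± 16.9, 329.9 ± 27.7 and 160.0 ± 12.6, and was lower on day 5 than on day 3 (-1.04 ± 0.13, adjusted p = 5.1e-05). Mif4gd, whose protein binds SLBP in histone mRNA translation, rose at both steps to 1318 ± 93.4 on day 5, against 765 ± 53.7 on day 3 and 422 ± 18.1 on day 1. Tut4, a uridylyl transferase of RNA decay, averaged 603 ± 44.5, 148 ± 63.8 and 410.1 ± 152.

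Among replacement histones, both H3.3 genes rose by day 5. The list was wider than H3.3 and H2A.Z and also held H2ax, H2aw and Cenpa. Of 12 tested, 10 were higher in day 3 against day 1, where 36.1% of all genes were. In day 5 against day 1, 7 were higher and 4 lower (median log2 change 0.75), against 36.7% and 37.7% of all genes. H3f3a and H3f3b encode the same protein, H3.3. H3f3a averaged 6076 ± 115, 12452 ± 607 and 16069 ± 1634 normalized counts on days 1, 3 and 5 (day 5 against day 1, log2 change 1.40 ± 0.10, adjusted p = 5.6e-07). H3f3b averaged 16398 ± 1311, 18765 ± 745 and 25024 ± 1511 (0.61 ± 0.11, adjusted p = 0.00046). H1f0, the linker histone of cells at rest, averaged 5043 ± 17.7, 7468 ± 251 and 4761 ± 478, and did not pass in day 5 against day 1 (adjusted p = 0.41).

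The variant genes H2az1, H2ax and Cenpa each had the highest mean on day 3 and the lowest on day 5. H2az1, an H2A.Z gene, averaged 11679 ± 175, 15607 ± 709.7 and 7004 ± 1016 normalized counts on days 1, 3 and 5. H2ax, whose protein is phosphorylated at DNA breaks, averaged 1685 ± 75.1, 2511 ± 243 and 869.8 ± 156, and Cenpa, the centromeric H3, 2455 ± 108, 3499.6 ± 236 and 507 ± 74.3. All 3 passed in each comparison, but the rise of H2ax in day 3 against day 1 (log2 change 0.57) turned to -0.38 with the trend on length and GC content removed. H2az2 rose most of the list in day 3 against day 1, to 3528 ± 559 on day 3, against 356 ± 13.9 on day 1.

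Histone chaperones, which carry new histones to DNA, were lower on day 5. Of 28 tested, 23 were lower in day 5 against day 1 (median log2 change -1.01), against 37.7% of all genes. In day 3 against day 1, 3 were higher and 18 lower, against 36.1% and 37.0% of all genes. In day 5 against day 3, 2 were higher and 15 lower, against 34.8% and 32.4%. The 2 large CAF-1 subunits, which place H3 and H4 behind the replication fork, differed on day 3. Chaf1a averaged 1909.9 ± 189, 357 ± 147 and 238 ± 50.8 normalized counts on days 1, 3 and 5, and Chaf1b 1109 ± 99.6, 1699 ± 220.0 and 208 ± 29.3. Asf1b, a carrier of H3 and H4, averaged 1168 ± 123, 471 ± 29.4 and 137 ± 2.91, and Nasp, a carrier of H1 and of H3 and H4, 4125 ± 455, 2778 ± 256 and 1126 ± 161.

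Most DNA replication genes were lower on day 5. Of 48 tested, 8 were higher and 26 lower in day 3 against day 1 (median log2 change -0.52), against 36.1% and 37.0% of all genes. In day 5 against day 3, 44 were lower (-1.75), against 32.4% of all genes. In day 5 against day 1, 45 were lower (-2.30), against 37.7%. Pcna, the sliding clamp of the replication fork, averaged 4369 ± 392, 4168 ± 68.8 and 1333 ± 170.1 normalized counts on days 1, 3 and 5. Its level did not pass in day 3 against day 1 (adjusted p = 0.61) and fell in day 5 against day 3 (log2 change -1.65 ± 0.11, adjusted p = 8.4e-07). Orc1, of the origin recognition complex, averaged 500.0 ± 61.7, 77.6 ± 13.5 and 17.6 ± 3.502.

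Among 24 G1/S genes, 19 were lower and 4 higher in day 3 against day 1, against 37.0% and 36.1% of all genes. In day 5 against day 1, 18 were lower and 2 higher, against 37.7% and 36.7%. Ccne2, cyclin E2, whose kinase acts on NPAT, averaged 625 ± 71.0, 42.2 ± 10.5 and 74.3 ± 18.7 normalized counts on days 1, 3 and 5. Among 28 mitosis genes, 25 were lower in day 3 against day 1 and 28 in day 5 against day 1, against 37.0% and 37.7%. Mki67, a marker of cycling cells, averaged 10441 ± 1149, 4207 ± 128 and 1068 ± 108. For every count of 0 in these lists, limma at an unadjusted p under 0.05 and voom weights also gave 0.

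RNAs made without a poly(A) tail were followed because most clustered histone mRNAs lack one, and whether the libraries were made by poly(A) selection or by removal of ribosomal RNA is not given in the sources used here. Of 15 such RNAs other than histone mRNAs, 4 could be tested and 7 had no read in any library. Rn7sk, the 7SK small nuclear RNA, had 29.8, 100.5 and 24.9 normalized counts on day 1, 1425, 983 and 871 on day 3, and 40.6, 52.9 and 92.3 on day 5. It was higher on day 3 than on day 1 (log2 change 4.63 ± 0.48, adjusted p = 1.1e-05) and lower on day 5 than on day 3 (-4.17 ± 0.48, adjusted p = 3.5e-05).

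Day 3 had more of 7SK than day 1, and the 4 members called higher there were H2bc11, H3c1, H4c4 and H2bc4, the last of which is annotated with a poly(A) signal or splicing. Replicate 3 was the lowest day 3 library for Rn7sk and for summed H2B, H3 and H4, but not for summed H1 or H2A. Among the replacement histone genes tested, it was also the lowest for H2az2 (2884, against 3890 and 3810), H3f3b, H2az1, H2ax and H2aj. The same held for H2aw, Macroh2a1, H1f0, H1f10 and Cenpa. For H3f3a it was in between (12308, against 11931 and 13118), and for Macroh2a2 the highest (262, against 226 and 257). The summed list of RNAs without a tail was 59.7, 147 and 31.5 on day 1. It was 1649, 1022 and 914 on day 3, and 57.5, 73.6 and 116 on day 5. Rn7sk did not pass in day 5 against day 1 (log2 change 0.46 ± 0.48, adjusted p = 0.40). Of the other 3 tested, Rn7s1 and Rn7s2, genes of the 7SL RNA whose counts nearly coincide, were lower in that comparison (log2 change -2.78 and -2.75, limma adjusted p = 0.0092 and 0.0091), and Scarna2, a small Cajal body RNA, was higher (3.11, adjusted p = 0.00094). The part of RNA selection in the day 3 levels was not tested.

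The libraries held 16.4 to 35.1 M reads, with means of 30.8 ± 4.29, 21.9 ± 2.55 and 17.6 ± 1.51 M on days 1, 3 and 5, so a low gene rests on fewer reads on day 5. Libraries of a day correlated at 0.968 to 0.989 (Pearson's r across genes, which are not independent replicates). The basal and epithelial markers Krt5, Trp63 and Epcam were present in every library. The leukocyte markers Ptprc and Tyrobp were at most 4.07 and at 0 normalized counts, while Lyz2, which macrophages and some airway cells express, stood at 63260 to 81448 on day 5. The summed list of 10 leukocyte markers was 258 to 289 on day 1, 2154 to 2235 on day 3 and 63464 to 81637 on day 5. The 3 of them that could be tested, Lyz2, Itgam and Cd68, were all higher in day 3 against day 1. The log2 change there ran from 1.98 for Itgam to 8.67 for Lyz2. In day 5 against day 3, Lyz2 was higher (7.01) and Cd68 lower (-3.30). The summed list of 6 fibroblast markers was 4.07 to 14.9, 4.02 to 8.88 and 103 to 130.5 on days 1, 3 and 5, nearly all of it from Dcn on day 5 (94.1 to 124), with Col1a1 at most 1.98 there. Summed Y-linked transcripts were 3027 to 3253 on day 1, 300 to 348 on day 3 and 401 to 575 on day 5. Xist, the RNA of the inactive X chromosome, was 1548 to 2018 on day 1, 5416 to 6346 on day 3 and 6116 to 8698 on day 5. The part of these differences in the histone results was not tested.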

How the data were processed

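RNA was sequenced in 9 libraries of mouse tracheal basal cells, 3 on each of days 1, 3 and 5. The submitters' processing notes name HISAT2 2.1.0, DESeq2 1.36.0 and the genome build GRCm39. The authors deposited a single log2 table (genes by libraries), in which each value is the log2 of a count over its library's size factor, as the values themselves show. Its 57107 lines held 359 repeats, which were dropped, and 297330 cells without a log2 value, which were read as 0. Back on the linear scale, 100% of the deposited values were whole multiples of 1 read within 0.01, so whole reads were read back. The sources used here do not name the read counter, its annotation or its use of strand.

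The 17338 genes with 10 or more normalized counts in 3 or more libraries were tested as log2(normalized count + 1), a scale on which changes of low genes come out too small. The test was limma 3.58.1 (R 4.3.3), with a mean for each day and a mean-variance trend (6 residual degrees of freedom), two-sided, with Benjamini-Hochberg adjustment over all genes. Error terms are SD over 3 libraries for levels and SE for log2 changes. The script was tested on simulated data. Transcript sequence, length and overlap came from GENCODE M21 (GRCm38) by gene identifier, and promoters from RefSeq (GRCm38.p6). No position in the build of the files is given. The genes named are every detected H1 gene, the 3 highest of each other type, the 3 highest and 3 lowest changes of each comparison, 16 genes of the other lists and the extremes of each list, and H2bc1, H2bc3, H2bc12, H2bc13, H2bc15, H2bc23, H2bc24, H2ac13 and H4c4 were added after their values were seen. The members and the lists were chosen with earlier results of these data known. Groups and replicate numbers came from the sample titles.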

Additional observations from a re-analysis of the deposited data

How the results depend on the processing

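Each result was recomputed with a pseudocount of 8, without the limit on low values, with a limit of 50 normalized counts, with TMM scaling, with quantile normalization, with the trend on transcript length and GC content removed, in fits to the 2 days compared, with a replicate block, and without each library in turn. limma with voom weights on whole reads was added after seeing the data. edgeR and DESeq2 were not run. In day 3 against day 1, the 4 members higher became 9 with a pseudocount of 8, 7 with voom weights, 2 with length and GC removed and 2 with the limit of 50, which left 10 members to test; leaving out 1 library gave 3 to 8, with 8 without replicate 3 of day 3. The 2 lower became 7 with length and GC removed, and 2 to 3 without 1 library. Of all genes in that comparison, 6253 of 17338 were higher with a pseudocount of 8 and 6327 with voom weights. The number higher was 6269 of 17046 with length and GC removed and 5302 of 13690 with the limit of 50. Leaving out 1 library gave 5761 to 6413 higher and 5967 to 6550 lower, and removing length and GC gave 5937 lower. With the limit of 50, 4 of the 10 members were lower in day 5 against day 3 and 5 in day 5 against day 1. Of the 13690 genes tested at that limit, 4924 and 5612 were lower there, so both counts were near the share of all genes. At that limit 6 members had steps that differed and 8 differed across days. Without 1 library, day 5 against day 3 had 2 to 3 higher and 19 to 29 lower, day 5 against day 1 had 2 to 4 higher and 17 to 26 lower, 15 to 25 had steps that differed and 22 to 31 differed across days. Of all 17338 genes, leaving out 1 library gave 5323 to 6043 higher and 4950 to 5623 lower in day 5 against day 3. In day 5 against day 1 it gave 5895 to 6479 higher and 6067 to 6598 lower. Quantile normalization gave 34 members lower in day 5 against day 3 and 31 in day 5 against day 1. Of all 17338 genes, 5785 and 6700 were lower with it.

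Of 3558 values of named genes, 3441 kept direction and side of the threshold, 56 passed where they had not, 50 no longer passed and 11 turned sign. With length and GC removed, the log2 change in day 5 against day 1 was -0.15 for H1f2 and -0.597 for Daxx; in day 5 against day 3 it was -0.47 for Npat, -0.43 for Casp8ap2 and -0.044 for H3f3a; in day 3 against day 1 it was 0.50 for Lsm11, -0.38 for H2ax, 0.065 for Ccnd2 and -0.35 for Daxx. With quantile normalization it was -0.31 for H3f3b in day 3 against day 1 and 0.30 for H1f0 in day 5 against day 1. The cause was not tested. Removing length and GC moved the median of all genes to -0.23 in both comparisons with day 5, and the share of calls that were higher in day 5 against day 3 to 37.0%, against 51.8%; TMM moved that median to 0.13, and no limit moved the day 3 against day 1 median to -0.11. Over the 3 numbers, same-numbered libraries of different days correlated at -0.311 to 0.141 in their deviations, so the numbers were not used as pairs, and with the replicate block 3 members were higher and 2 lower in day 3 against day 1, 2 and 22 in day 5 against day 3, and 3 and 19 in day 5 against day 1. Of all 17338 genes, the block gave 6026 higher and 6180 lower in day 3 against day 1. It gave 5655 and 5324 in day 5 against day 3, and 6151 and 6286 in day 5 against day 1. Depth limits genes with few reads on day 5, such as H2ac8, H2ac13 and H3c8 with 2, 2 and 1 reads over its libraries.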
